A study of Mus musculus with 4 samples.

Results

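The genes described here are the potassium channel genes of the deposited expression matrix, chosen by symbol alone: a name starting with Kcn and a further letter, and ending in a digit. The rule found 92 of the 20325 gene symbols, and no expression value entered it. All 92 code for channel pores or their partner subunits. They divide into 30 voltage-gated pore subunits, 10 silent Kv subunits (which alter other voltage-gated pores but form no working channel alone), 8 subunits of channels opened by calcium, sodium or pH, 15 inward rectifiers, 14 tandem-pore-domain leak channels and 15 auxiliary subunits.

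Potassium channels are membrane proteins that let potassium ions leave or enter the cell, and by doing so they set the resting membrane voltage, the shape of electrical signals and cell volume. Pore-forming subunits fall into families that open on membrane voltage, on intracellular calcium or sodium, that conduct best in the inward direction, or that leak at rest, and auxiliary subunits bind the pores and change their gating or their traffic to the surface. In fibroblasts and mesenchymal progenitor cells, calcium-activated and inwardly rectifying channels are known for hyperpolarising the membrane and for a part in proliferation and differentiation.

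RNA was sequenced from C3H10T1/2 cells, a multipotent mesenchymal line from C3H mouse embryos, at passage 10 to 15. The cells stably expressed FLAG-HA-tagged histone H3.3, either the K36M mutant, in which methionine replaces the lysine that H3K36 methyltransferases modify (2 libraries), or the wild type protein (WT, 2 libraries). Both groups carry the tag and the expression construct, and cells without a construct were not analysed here. The promoter of the construct, and whether each line is 1 clone, are not stated in the labels. Nor do they say that the 2 libraries of a group are separate cultures. The spread behind each p-value is that between these libraries, drawn toward a spread shared by all tested genes, and may be technical only.

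Library totals were 56041798 and 34022137 expected counts in K36M and 25322433 and 23343297 in WT, so K36M libraries were on average 1.85 times as deep. All 10 mesenchymal markers, Vim, Col1a1 and Prrx1 among them, were detected in all 4 libraries, with summed levels of 23160 to 24880 CPM (expected counts relative to library sizes adjusted by the TMM method) in K36M and 30970 to 31310 CPM in WT. Of these 10 markers 3 were higher and 6 lower in K36M, against 38.5% and 37.1% of all tested genes. The largest differences were of Thy1, 11.2-fold higher, and Col3a1, 2.88-fold lower (edgeR adjusted p = 1.63e-16 and 5.09e-16). Potassium channel genes are most often described in nerve, muscle and epithelium, so markers of those cells were summed as well. The 10 markers of neurons and glia summed to 8.01 and 9.12 CPM in K36M and 7.63 and 7.17 CPM in WT, with Olig2 at 0 in all libraries. The 6 striated muscle markers summed to 2.85 and 2.36 CPM in K36M and 1.09 and 1.52 CPM in WT, with Myod1 and Myog at 0. The 6 epithelial markers summed to 23.9 and 25.7 CPM in K36M, nearly all of it Cdh1, and 6.01 and 5.74 CPM in WT, with Epcam and Cldn4 at 0. The 3 tested epithelial markers, Cdh1, Krt8 and Esrp1, were all higher in K36M by edgeR (adjusted p = 4.57e-13, 3.18e-05 and 4.35e-05), Esrp1 with 23 and 21 counts in K36M libraries and 0 in WT libraries. Of the 6 blood markers, summing to 35.5 and 33.5 CPM in K36M and 3.27 and 3.52 CPM in WT, the globin gene Hba-a1 made up most in K36M and Hbb-b1 was at 0. The 5 endothelial markers summed to 13.7 and 12.1 CPM in K36M and 10.7 and 10.9 CPM in WT, and the 7 smooth muscle markers, most of them Acta2 RNA, to 749.9 and 709.4 CPM in K36M and 842.3 and 796.1 CPM in WT. Of the 6 tested smooth muscle markers 2 were higher and 2 lower in K36M. Acta2 was 1.31-fold lower, while Actg2, at 60.1 and 55.4 CPM in K36M and 6.25 and 5.34 CPM in WT, and Tagln were 9.96-fold and 3.01-fold higher (edgeR adjusted p = 8.27e-08, 2.11e-17 and 5.21e-13). The part of these levels in the results below was not tested, and in such bulk RNA fewer cells of a type and less RNA per cell cannot be told apart.

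Most potassium channel genes were close to silent in these cells. Only 26 of the 92 (28.3%) had enough counts to be tested, against 64.8% of all genes. Of the other 66, 20 had no count in any library, 25 had 1 to 10 counts over the 4 libraries and 21 had more than 10. The genes without a count included the voltage-gated subunits Kcna2, Kcna3, Kcnq3 and Kcnq5, the KATP channel pore Kcnj11 and the small-conductance calcium-activated channel Kcnn2. For a gene at 0, a floor of 3 counts corresponds to 0.0328 CPM over both K36M libraries and 0.0628 CPM over both WT libraries, so the WT libraries could miss a level that the K36M libraries would show.

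Among the 26 tested genes, 12 were higher and 8 lower in K36M cells by edgeR's quasi-likelihood test at a Benjamini-Hochberg adjusted p under 0.05 over all 13162 genes tested. Over all tested genes 38.5% were called higher and 37.1% lower, 75.6% in all, so the shares of channel genes called, 46.2%, 30.8% and 76.9%, lay near the background. Large differences were more frequent: 11 channel genes (42.3% of those tested) rose at least 2-fold and 5 (19.2%) fell at least 2-fold, where the background over all tested genes was 12.7% and 8.69%. The median log2 fold change was 0.54 for the 26 channel genes and 0.00347 for all tested genes, and the median size without sign was 2.08 and 0.378. These figures describe the genes that passed the filter on low counts. Of the 26, 9 passed it only through the K36M libraries and 4 only through the WT libraries. Such entry favours genes that differ between groups, so nothing is read from the excess of large differences. It does not require a called difference, since Kcnk4 passed only through the K36M libraries and was not called (edgeR adjusted p = 0.172). Of the 13 that passed in both groups, 4 were higher and 4 lower. The matching share over all genes that passed in both groups was not taken, so nothing is read from this count.

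**Figure D1:**
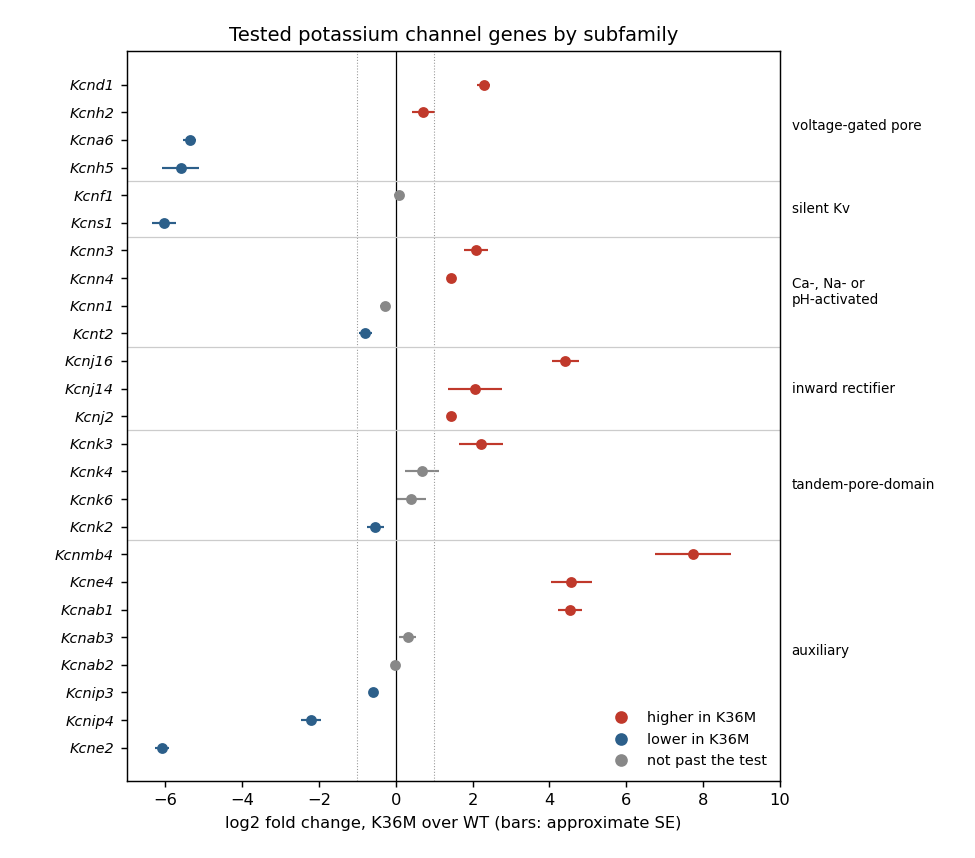
Log2 fold change, K36M over WT, of 25 of the 26 tested potassium channel genes, grouped by subfamily; bars are approximate standard errors and dotted lines mark 2-fold. Changes in both directions appear in the voltage-gated, the calcium-, sodium- or pH-activated, the tandem-pore-domain and the auxiliary subfamilies, while all 3 tested inward rectifiers are higher. Of these 3, 2 (Kcnj16 and Kcnj14) passed the filter on low counts only through the K36M libraries, so no family trait is read from this. The position of Kcnmb4, at 0 counts in WT, depends on a small constant in the fit.

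The channel genes with the largest losses were Kcne2, Kcns1, Kcnh5 and Kcna6. Kcne2, which encodes a single-span auxiliary subunit of KCNQ and HERG channels, had 0.194 and 0.201 CPM in K36M libraries, against 13.4 and 13.7 CPM in WT libraries. The K36M libraries held 11 and 7 counts of this gene, although they were deeper, and the WT libraries 331 and 316. The groups did not come near each other: the mean was 0.198 ± 0.0055 CPM in K36M and 13.5 ± 0.265 CPM in WT (SD, n = 2 each), 68.5-fold lower in K36M (log2 fold change -6.08, approximate SE 0.17, edgeR adjusted p = 3.5e-16). Kcns1, a silent subunit that modifies Kv2 channels, had 0.0704 and 0.0576 CPM in K36M libraries, against 4.88 and 4.08 CPM in WT libraries, 70.1-fold lower (edgeR adjusted p = 2.38e-12). With 4 and 2 counts left, its K36M level was at the edge of detection.

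Kcna6, a voltage-gated subunit of the Shaker family found mainly in neurons, had 0.335 and 0.259 CPM in K36M libraries and 12.3 and 13.2 CPM in WT libraries. Of the tested voltage-gated pores it had the highest mean level, per kb of exon as well as in CPM, and it fell 42.9-fold in K36M (log2 fold change -5.36, approximate SE 0.17, edgeR adjusted p = 1.37e-15). Kcnh5, an ether-a-go-go channel of brain, had 2 and 1 counts in K36M libraries and 33 and 51 counts in WT libraries. The ratio was 53.6-fold with a 95% Clopper-Pearson counting interval of 17.7-fold to 265-fold (edgeR adjusted p = 7.69e-09). Kcnip4, a calcium-binding auxiliary subunit of Kv4 channels, fell less, with 0.581 and 0.489 CPM in K36M libraries and 3.03 and 2.00 CPM in WT libraries, 4.69-fold lower (edgeR adjusted p = 3.5e-07). In each of these 5 genes both K36M libraries lay below both WT libraries, as is likely for genes chosen by the test, so nothing is read from it.

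The gains ran from well-detected channels that rose 2.72-fold to genes with few or no counts in WT. Kcnj2, the inward rectifier that stabilises the resting voltage in muscle and other cells, had 23.4 and 23.6 CPM in K36M libraries and 8.76 and 8.52 CPM in WT libraries. It rose 2.72-fold (log2 fold change 1.44, approximate SE 0.08, edgeR adjusted p = 9.45e-12). Kcnn4, the intermediate-conductance calcium-activated channel, rose by nearly the same factor, 2.717-fold, with 17.6 and 16.0 CPM in K36M libraries and 6.25 and 6.13 CPM in WT libraries (log2 fold change 1.45, approximate SE 0.10, edgeR adjusted p = 1.36e-10). Kcnj2 and Kcnn4 rested on 1329 and 819, and on 1002 and 556, counts in K36M libraries and on 217 and 196, and 155 and 141, counts in WT libraries.

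The other tested inward rectifiers, Kcnj16 and Kcnj14, also rose, but both passed the filter on low counts only through the K36M libraries. Kcnj16, which forms mixed channels with Kcnj10 in kidney and glia, had 2.55 and 2.99 CPM in K36M libraries and 0.0807 and 0.174 CPM in WT libraries, 21.8-fold higher (edgeR adjusted p = 1.7e-09). Its WT level rested on 2 and 4 counts, and the log2 fold change of 4.41 was 3.95 without WT replicate 1 and 5.03 without WT replicate 2. Kcnj14, an inward rectifier of the Kcnj2 branch, had 0.352 and 0.374 CPM in K36M libraries and 0.161 and 0 CPM in WT libraries (edgeR adjusted p = 0.0122). Its call was lost with the DESeq2 Wald test (adjusted p = 0.0824) and in edgeR when WT replicate 2 was left out (adjusted p = 0.164, log2 fold change 1.14 against 2.06 with all libraries). Without WT replicate 1 the only WT library left had no count, so the fold there depends on a small constant in the fit, and without either K36M library the gene fell below the filter and was not tested. A fit with 1 library left out has a single library in 1 group, which is assumed to vary like the other group. Kcnj16 and Kcnj2 are direct neighbours among protein-coding genes in the RefSeq annotation, the only 1 of 10 neighbouring pairs of channel genes in which both were tested.

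Among the voltage-gated pores, Kcnd1 rose at least 2-fold. Kcnd1, an A-type channel of the Kv4 group, had 5.78 and 5.44 CPM in K36M libraries and 1.05 and 1.26 CPM in WT libraries, 4.86-fold higher (edgeR adjusted p = 5.31e-10). So within 1 functional class, Kcna6 and Kcnh5 fell while Kcnd1 rose. Kcnh2, the HERG channel of heart, had 1.04 and 0.9497 CPM in K36M libraries and 0.444 and 0.782 CPM in WT libraries (log2 fold change 0.72, edgeR adjusted p = 0.0412). With all libraries that call was lost with the DESeq2 Wald test (adjusted p = 0.2185) and in edgeR with the authors' scaling factors (adjusted p = 0.0678). It was also lost without WT replicate 1, K36M replicate 1 or K36M replicate 2, and the log2 fold change without WT replicate 1 was 0.35.

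Further gains in pore subunits were of Kcnn3 and Kcnk3. Kcnn3, a small-conductance calcium-activated channel, had 1.53 and 1.30 CPM in K36M libraries and 0.363 and 0.304 CPM in WT libraries, 4.24-fold higher (edgeR adjusted p = 8.95e-06). Kcnk3, an acid-sensitive leak channel, had 0.528 and 0.460 CPM in K36M libraries and 0.0403 and 0.174 CPM in WT libraries (edgeR adjusted p = 0.00166). Its WT level rested on 1 and 4 counts, and the log2 fold change of 2.22 was 1.51 without WT replicate 1 and 3.53 without WT replicate 2. The groups did not overlap for either gene, which is likely for genes chosen by the test.

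Among auxiliary subunits, Kcnab1, Kcne4 and Kcnmb4 rose while Kcne2 and Kcnip4 fell. Kcnab1, a cytoplasmic beta subunit that speeds inactivation of Shaker-type channels, had 3.54 and 3.34 CPM in K36M libraries and 0.0807 and 0.217 CPM in WT libraries, 23.1-fold higher (edgeR adjusted p = 2.64e-10). Its WT level rested on 2 and 5 counts, and the log2 fold change of 4.53 was 3.96 without WT replicate 1 and 5.36 without WT replicate 2. Kcne4, an inhibitory relative of Kcne2, had 58 and 40 counts in K36M libraries and 1 count in each WT library, a ratio of 25.6 with a counting interval of 6.90 to 214 (edgeR adjusted p = 4e-07). Kcnmb4, the neuronal beta subunit of the large-conductance calcium-activated channel, had 43 and 27 counts in K36M libraries and 0 in both WT libraries, at least 12.2-fold higher (edgeR adjusted p = 1.71e-06). The pore that Kcnmb4 binds, Kcnma1, was itself too low to be tested, with 15 and 7 counts in K36M libraries and 0 and 1 in WT libraries.

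**Figure D2:**
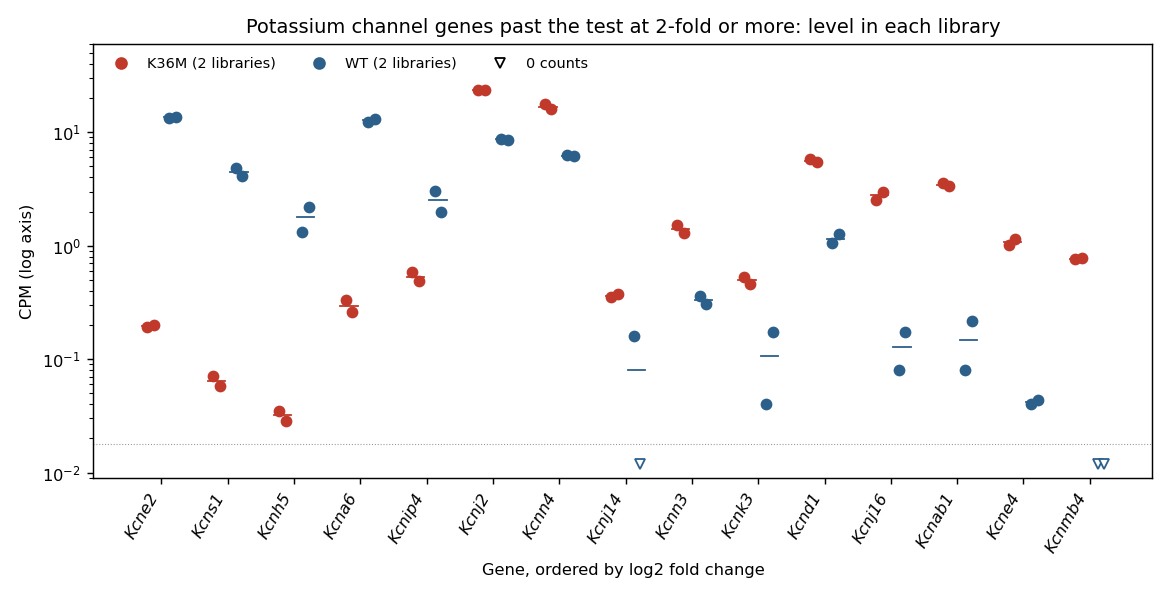
CPM in each library, on a log axis, of 15 of the 16 potassium channel genes past the test at 2-fold or more, ordered by log2 fold change; red points are K36M libraries, blue points WT libraries, short lines group means, and open triangles below the dotted line mark 0 counts. For every gene shown both K36M libraries lie on 1 side of both WT libraries, with Kcne2 at 0.194 and 0.201 CPM against 13.4 and 13.7 CPM and Kcnj2 at 23.4 and 23.6 CPM against 8.76 and 8.52 CPM. Genes chosen as called at 2-fold or more are likely to separate in this way, so nothing is read from it.

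The start regions of 4 of these genes are shown to compare sequence at genes that were lost (Kcne2, Kcns1) and gained (Kcnj2, Kcnmb4). These 4 were picked by hand, not by a set rule. Each is the 250 bases before the outermost start site in RefSeq (build GRCm38.p6, while the counts were made on mm9), written 5′ to 3′ on the gene's strand, with each CG dinucleotide in capitals. Kcne2 lies at chr16:92292139-92292388 on the plus strand, Kcns1 at chr2:164171114-164171363 on the minus strand, Kcnj2 at chr11:111065914-111066163 on the plus strand and Kcnmb4 at chr10:116473524-116473773 on the minus strand.
Kcne2: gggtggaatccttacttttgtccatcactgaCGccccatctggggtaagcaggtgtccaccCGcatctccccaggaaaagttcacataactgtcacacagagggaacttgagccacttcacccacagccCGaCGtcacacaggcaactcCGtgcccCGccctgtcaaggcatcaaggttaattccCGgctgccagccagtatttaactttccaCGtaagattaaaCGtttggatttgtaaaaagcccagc
Kcns1: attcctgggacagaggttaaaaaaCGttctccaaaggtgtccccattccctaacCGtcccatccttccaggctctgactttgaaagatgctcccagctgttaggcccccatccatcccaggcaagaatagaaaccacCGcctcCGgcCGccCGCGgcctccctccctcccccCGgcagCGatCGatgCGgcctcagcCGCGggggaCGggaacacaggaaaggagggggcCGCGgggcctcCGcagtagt
Kcnj2: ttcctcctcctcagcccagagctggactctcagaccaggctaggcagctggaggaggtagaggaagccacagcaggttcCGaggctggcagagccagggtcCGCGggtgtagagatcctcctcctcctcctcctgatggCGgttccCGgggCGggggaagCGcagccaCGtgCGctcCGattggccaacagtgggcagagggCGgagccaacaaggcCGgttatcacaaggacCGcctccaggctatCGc
Kcnmb4: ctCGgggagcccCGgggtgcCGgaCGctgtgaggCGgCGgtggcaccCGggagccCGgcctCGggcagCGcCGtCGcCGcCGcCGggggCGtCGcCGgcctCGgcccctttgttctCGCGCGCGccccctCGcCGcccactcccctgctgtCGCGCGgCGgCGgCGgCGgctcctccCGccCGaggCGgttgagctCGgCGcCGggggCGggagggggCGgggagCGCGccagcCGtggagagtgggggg
The windows hold 9 CG in Kcne2, 17 in Kcns1, 14 in Kcnj2 and 43 in Kcnmb4. Over 27025 RefSeq start regions of the same length, 1 per gene, the median was 6 and 91.7% held at least 1. Start regions were found for 67 of the 92 channel genes, with a median of 8. The 8 genes called higher with an entry had a median of 8.5 (3 to 43) and the 8 called lower also 8.5 (4 to 17), so the counts overlapped between directions. At 2-fold or more, the 7 higher had a median of 7 and the 5 lower a median of 9. The 4 windows shown therefore do not stand for their directions. The letters TATAAA, searched on both strands with no overlap with CG possible, occurred in 12.98% of all start regions and in 2 of the 67 of channel genes, neither of them a tested gene.

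The other 10 tested channel genes either changed less than 2-fold or did not pass the test. Kcnip3, a calcium sensor that binds Kv4 channels and can repress transcription, fell 1.498-fold, with 7.01 and 7.28 CPM in K36M libraries and 10.9 and 10.5 CPM in WT libraries (edgeR adjusted p = 1.8e-05). Kcnt2, a sodium-activated channel, fell 1.75-fold, with 1.94 and 1.70 CPM in K36M libraries and 3.39 and 2.95 CPM in WT libraries (edgeR adjusted p = 0.0004). Kcnk2, a mechanically gated leak channel with the highest mean level of its family in CPM and per kb of exon, had 1.11 and 1.12 CPM in K36M libraries and 1.53 and 1.69 CPM in WT libraries (log2 fold change -0.53, edgeR adjusted p = 0.0364). With all 4 libraries the call for Kcnk2 was lost in edgeR with scaling by total counts (adjusted p = 0.0564) or upper quartile (0.0510). It was also lost with the DESeq2 Wald test (adjusted p = 0.218). The call was lost too when any 1 of the 4 libraries was left out. The log2 fold change then ran from -0.61 (without WT replicate 1) to -0.47 (without WT replicate 2).

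The 6 genes that did not pass had log2 fold changes between -0.28 and 0.68. Kcnab2, a beta subunit, had 11.9 and 10.7 CPM in K36M libraries and 11.6 and 11.4 CPM in WT libraries (log2 fold change -0.02, approximate SE 0.09, edgeR adjusted p = 0.869). Kcnf1, a silent subunit, had 9.24 and 8.66 CPM in K36M libraries and 9.72 and 7.30 CPM in WT libraries (log2 fold change 0.07, approximate SE 0.11, edgeR adjusted p = 0.57). For Kcnn1, a small-conductance calcium-activated channel, the values were 3.84 and 4.98 CPM in K36M libraries and 5.12 and 5.39 CPM in WT libraries (log2 fold change -0.28, edgeR adjusted p = 0.0716). The log2 fold changes of Kcnab3, Kcnk6 and Kcnk4 were 0.31, 0.40 and 0.68, with approximate SE of 0.23, 0.38 and 0.44. Kcnn1 passed the threshold without K36M replicate 2 (edgeR adjusted p = 0.00386), with no filter on low counts (0.0394) and with the authors' scaling factors (0.0201), and Kcnf1 without WT replicate 1 (0.0436), and Kcnab2 and Kcnf1 changed sign under other scalings, never past the threshold.

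Per length of transcript, Kcnn4 and Kcnj2 made up a larger part of the pore-forming channel RNA in K36M cells. With CPM divided by exon length (GENCODE M21, matched by symbol for all 92 genes), the sum over pore-forming genes was 20.9 and 20.2 CPM per kb in K36M libraries and 14.27 and 13.99 CPM per kb in WT libraries. Kcnn4 came first in both groups, at 8.69 and 7.88 CPM per kb in K36M libraries and 3.08 and 3.02 CPM per kb in WT libraries. Together with Kcnj2, at 4.30 and 4.33 CPM per kb in K36M libraries and 1.61 and 1.56 CPM per kb in WT libraries, it led the K36M order. Kcnn4 alone made up 41.6% and 39.1% of the sum in K36M libraries and 21.6% in both WT libraries, and Kcnj2 20.6% and 21.5% in K36M libraries and 11.3% and 11.2% in WT libraries. Next in K36M came Kcnf1 at 1.93 and 1.81 CPM per kb.

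In WT libraries the order below Kcnn4 was Kcna6, Kcnf1, Kcns1 and Kcnj2, with mean levels of 2.18, 1.78, 1.65 and 1.59 CPM per kb. The ranges of Kcnf1, Kcns1 and Kcnj2 overlapped there, so their order is not resolved. In K36M libraries Kcna6 stood at 0.0573 and 0.0444 CPM per kb and Kcns1 at 0.0260 and 0.0212 CPM per kb. By family, calcium-, sodium- or pH-activated channels made up 50.4% and 48.7% of the sum in K36M libraries and 34.6% and 34.7% in WT libraries, and inward rectifiers 26.7% and 28.7% in K36M libraries and 13.67% and 14.02% in WT libraries. Voltage-gated pores made up 8.999% and 9.05% in K36M libraries and 19.99% and 23.33% in WT libraries, and silent subunits 9.83% and 9.52% in K36M libraries and 27.1% and 21.8% in WT libraries. Leak channels stayed a small part of the RNA, at 4.09% and 4.03% in K36M libraries and 4.62% and 6.20% in WT libraries. These shares describe RNA and were not tested.

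**Figure D3:**
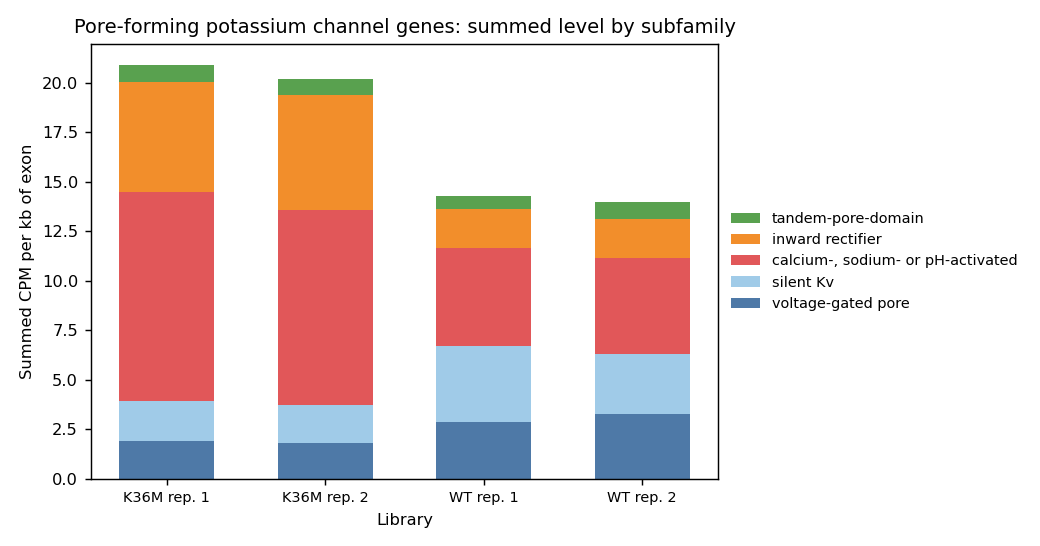
Summed level of pore-forming potassium channel genes in each library, in CPM per kb of exon, stacked by subfamily. The K36M bars reach 20.9 and 20.2 and the WT bars 14.27 and 13.99, with larger red and orange segments (calcium-, sodium- or pH-activated channels and inward rectifiers) and smaller blue ones (voltage-gated and silent subunits) in K36M.

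Some channel genes had counts almost entirely in 1 group. With at most 3 counts over 1 group and at least 20 over the other, there were 11, 10 with counts in K36M (10.9% of the 92) and 1, Kcnh5, with counts in WT (1.09%). Over all 20325 genes the same rule found 576 (2.83%) in K36M and 27 (0.133%) in WT, so the excess on the K36M side was general in these libraries, of which those of K36M were deeper. Of the 11, 7 were below the filter and so had no test in the fit above. Kcnc2, a fast voltage-gated channel, had 27 and 10 counts in K36M libraries and 0 in both WT libraries, at least 6.44-fold higher. Kcnj8, the KATP pore of vascular cells, had 19 and 10 counts in K36M libraries and 0 in both WT libraries, at least 5.05-fold higher.

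Its partner receptor Abcc9 was low in both groups, and Abcc8 and Abcc9 together summed to 0.335 and 0.259 CPM in K36M libraries and 0.161 and 0.348 CPM in WT libraries. Kcnc4, another channel of the Kcnc family, had 16 and 9 counts in K36M libraries and 0 in both WT libraries, and Kcnj12, an inward rectifier of muscle, had 15 and 10 counts against 0, each at least 4.35-fold higher. The ratio was 11.5 for Kcnma1 (counting interval 1.86 to 474) and 3.83 for Kcnj15 (1.15 to 19.98). Without the filter on low counts edgeR called Kcnc2, Kcnj8, Kcnc4, Kcnj12 and Kcnma1 higher, with adjusted p from 2.93e-06 to 0.00688, and Kcnj15 had adjusted p = 0.0545. These genes were picked for that same difference in counts, so the p-values add no support. The fit without the filter also gave far smaller adjusted p at nearly the same fold, for Kcna6 1.74e-210 against 1.37e-15 with the filter (edgeR).

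Depth alone favours counts in K36M, so all libraries were also thinned at random to the smallest total. Then the rule on 3 and 20 counts found 3 channel genes with counts in K36M and 2 in WT, against 350 (1.72%) and 56 (0.276%) of all genes. Of the 92 genes 47 (51.1%) had a count in both K36M libraries and 36 (39.1%) in both WT libraries, and of all genes 74.3% and 68.9%. A count in both libraries of 1 group and none in the other was found for 8 channel genes (8.70%) in K36M and 3 (3.26%) in WT, and for 4.25% and 0.625% of all genes. Nothing particular to channel genes is read from these counts.

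**Figure D4:**
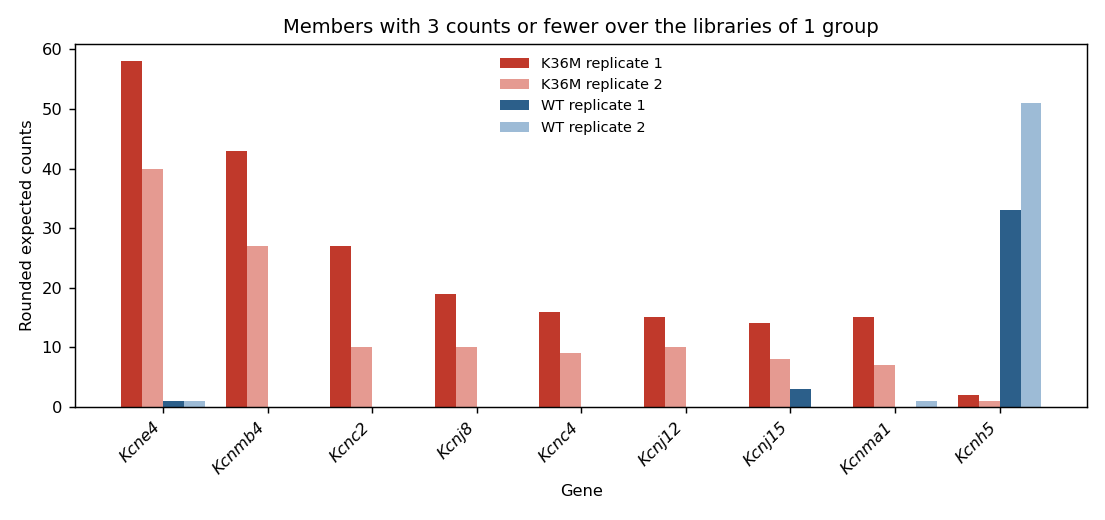
Rounded expected counts in each library of 9 of the 11 potassium channel genes with at most 3 counts over the libraries of 1 group and at least 20 over the other. In 8 of those shown the counts lie in K36M (red and pink bars), from 22 over both libraries for Kcnma1 to 98 for Kcne4, and Kcnh5 has 33 and 51 counts in WT (blue bars); counts are not scaled for the deeper K36M libraries.

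The authors' deposited table of genes with a ratio over 10 or under 0.1 lists 8 of the 92 channel genes among its 594. In the authors' deposited table the ratio of K36M to WT is 0.0159 for Kcne2, 0.0201 for Kcns1, 0.0243 for Kcna6 and 0.0332 for Kcnh5, and 25.2 for Kcnmb4, 18.4 for Kcnab1, 15.6 for Kcnj16 and 14.7 for Kcne4. That ratio is taken on scaled counts plus 1, with the authors' own scaling factors, so it is not on the same scale as the folds above.

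Exons of 9 of the 26 tested genes overlap those of another gene on the opposite strand in GENCODE M21. Among them are Kcna6, Kcnab1, Kcnab3, Kcnip4, Kcnk2, Kcnmb4, Kcnn1 and Kcnt2. The labels do not say whether strand was kept, so reads in the shared stretches cannot be assigned to these genes or to their antisense partners. The length of those stretches was not taken. Expected counts more than 0.001 above a whole number, as RSEM gives for reads that align in several places, made up 11.96% to 18.48% of the 92 values in a library.

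Other genes of ion transport changed in both directions, on the same scale and test. Their counts stand beside the background over all tested genes of 38.5% called higher and 37.1% lower (12.7% and 8.69% at 2-fold or more), and in lists of this size nothing particular is read from them. Of 10 tested Na,K-ATPase subunit and FXYD regulator genes, 5 rose and 4 fell, with a median log2 fold change of 0.05. Fxyd2, a regulator of the pump in kidney, had 10.2 and 9.61 CPM in K36M libraries and 0.202 and 0.174 CPM in WT libraries. Fxyd6 moved the other way, with 3.13 and 2.56 CPM in K36M libraries and 52.8 and 54.2 CPM in WT libraries, as did Fxyd3, 6.08-fold lower in K36M. The edgeR adjusted p of these 3 genes was at most 7.19e-11.

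Of 12 tested voltage-gated calcium channel genes 7 rose and 4 fell (median 0.60), and 9 of these changes were at least 2-fold. Cacna1d (an L-type pore), Cacna1h (a T-type pore) and Cacna2d1 (an auxiliary subunit) were 16.7-fold, 12.6-fold and 3.96-fold lower in K36M (edgeR adjusted p = 1.2e-09, 5.48e-09 and 6.93e-15). Cacna2d3, which encodes an auxiliary calcium channel subunit, had 0.775 and 0.892 CPM in K36M libraries and 0 counts in WT libraries, at least 13.1-fold higher (edgeR adjusted p = 1.23e-06). Of 6 tested sodium channel genes 4 rose and 2 fell (median 1.76). Voltage-gated sodium channels are best known from nerve and muscle. Those with rises of at least 2-fold were Scn3b, Scn10a, Scn1a and Scn8a, 4.86-fold, 4.31-fold, 3.38-fold and 3.22-fold (edgeR adjusted p = 0.000354, 0.00327, 0.00461 and 1.61e-07), all below 4 CPM in every library. Scn1a had adjusted p = 0.0641 with the DESeq2 Wald test. The log2 fold change of Scn10a, 2.01, was 1.56 without WT replicate 1 and 2.64 without WT replicate 2.

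Of 7 tested cation-chloride cotransporter genes 3 rose and 2 fell (median 0.25), and Slc12a5, the neuronal potassium-chloride exporter, rose 4.66-fold (edgeR adjusted p = 2.02e-08). Of 9 tested genes for channel-binding proteins 3 rose and 3 fell (median 0.02), with Amigo1, a partner of Kv2 channels, 2.36-fold higher (edgeR adjusted p = 1.79e-06). Of 3 tested HCN and CNG channel genes none rose and 1, Cngb1, fell (median -0.32, edgeR adjusted p = 4.75e-05 for Cngb1). Neither sulfonylurea receptor gene was tested. Of 8 other potassium-permeable and organelle channels 2 rose and 5 fell (median -0.29). Trpv4, a calcium-permeable channel known from cartilage cells, was 3.60-fold lower in K36M (edgeR adjusted p = 9.02e-17). Tmem38b, an organelle potassium channel, had 32.8 and 8.92 CPM in K36M libraries and 237 and 90.8 CPM in WT libraries, 7.84-fold lower in K36M (edgeR adjusted p = 8.82e-07), with a wide spread within each group. Its log2 fold change of -2.88 was -4.20 without K36M replicate 1 and -2.03 without WT replicate 1.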

How the data were processed

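RNA was measured in 4 libraries, 2 of H3.3 K36M and 2 of H3.3 WT cells, grouped by their titles. The submitters' processing notes name Bowtie 1.0.0, RSEM 1.2.12 and the build mm9, and give no roles or settings for them. The authors deposited raw RSEM expected counts per gene symbol, which need not be whole and which the file header ties to EBSeq. A second table deposited by the authors gives log2 of scaled counts plus 1 and a ratio of group means (fold).

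Expected counts were rounded and tested with edgeR 4.0.16 (R 4.3.3): filterByExpr (about 0.337 CPM in 2 libraries), TMM scaling, a quasi-likelihood F test with 2 residual degrees of freedom, Benjamini-Hochberg adjustment over 13162 genes, calls at 0.05. The test draws each gene's spread toward that of all tested genes, with 15.7 prior degrees of freedom (median). CPM use TMM effective library sizes. Folds are ratios of mean CPM. Approximate SE is the log2 fold change divided by the root of F. Folds against 0 use a floor of 3 counts over the group and take the other group's counts as exact, so "at least" is not a confidence limit. Ratios with 1 to 3 counts carry a 95% Clopper-Pearson interval on summed counts. Both cover counting error at most, since reads are not independent molecules. On simulated counts for this comparison (13013 genes), all genes shared 1 dispersion (coefficient of variation 3.33%), and only well-counted genes were changed. There the test recovered 50 of 50 genes changed 2-fold, with 5 false among 192 calls. These rates do not carry over to channel genes with low counts, nor to data in which most genes are called.

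Members, lists and tests were chosen with earlier results of these data known. Named channel genes are those called at 2-fold or more, those with at most 3 counts in 1 group and at least 20 in the other, the highest of each subfamily by CPM, and tested genes not past the threshold; Kcnh2, Kcnip3, Kcnt2 and untested genes were named after their values were seen. At most 4 genes called at 2-fold or more are named per related list, and Cngb1 was added after its values were seen. Alternatives were DESeq2 1.42.0, limma-voom 3.58.1, other scalings and filters, a replicate block, each library left out and, chosen after seeing the data, thinning. Libraries of a group correlated at r = 0.996 (K36M) and 0.994 (WT) over genes and their counts differed beyond sampling error (chi-square per gene averaging 6.11 and 3.17 on raw totals). Protein sequences were not used here. A few genes that enter the fits and counts are not reported here by name or in the plots.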

Additional observations from a re-analysis of the deposited data

How the results depend on the processing

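The number of channel genes called higher depended on the filter for low counts. It was 12 as reported, 21 with no filter and 5 with a mean of at least 1 CPM, and for rises of at least 2-fold 11, 20 and 5; with no filter 72 of the 92 genes were tested and with the stricter one 16, so genes entered or left the test. The number called lower was 7 to 9 under all alternatives. Leaving out each library in turn, which leaves 1 group with a single library assumed to vary like the other group, gave 10 to 15 higher and 7 to 8 lower, and 10 to 15 and 5 to 6 at 2-fold or more. In a fit with the replicate number as a block (replicate block) 11 were higher and 8 lower, and of the 20 calls only Kcnh2 was lost (adjusted p = 0.0614). The numbers share no stated source, and deviations of same-numbered libraries correlated at 0.00232, so no pairing is assumed. Over the 26 tested channel genes, 325 of 351 values kept their direction and side of the threshold, 15 lost the call (Kcnh2, Kcnk2 and Kcnj14), 4 gained it (Kcnn1 and Kcnf1) and 7 changed sign, none of them past the threshold. The sign changes were of Kcnab2 under total counts (log2 fold change 0.0324), upper quartile (0.0235) and thinning (0.0422), and of Kcnf1 under the authors' factors (-0.0126). With 1 library left out, log2 fold changes ran from -0.101 (without K36M replicate 1) to 0.0498 (without K36M replicate 2) for Kcnab2, from -0.121 (without WT replicate 2) to 0.295 (without WT replicate 1) for Kcnf1 and from -0.0515 (without K36M replicate 1) to 0.637 (without K36M replicate 2) for Kcnk6. Of the 16 related genes compared, Scn1a lost its call with the DESeq2 Wald test, and no other lost its call where it was tested. Scn1a was not tested without K36M replicate 1, Scn1a and Scn10a not after thinning, and Kcnj14 not without either K36M library; the stricter filter also left low genes out. The cause of each lost call was not tested. Depth limits the 66 untested genes, for which a level under 0.0328 CPM in K36M or 0.0628 CPM in WT cannot be told from 0.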
